A study of Mus musculus with 384 samples.

Results

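Cd47 was followed across brain regions as 1 of 69 targeted assays, chosen by its gene symbol in the deposited table and measured in 380 of 384 labelled samples. The samples are frozen micropunches from 32 mice, and 12 region labels were taken from each mouse. The labels describe male Balb/c mice at postnatal day 9 and sort them into 4 label groups of 8 mice each, which are Co naive, Co inject, MS naive and MS inject. The study's design text instead describes limited nesting or early handling, the latter for 15 min per day, from postnatal day 2 to 9, followed from 12 weeks of age by housing with an ovariectomized female or by chronic social defeat. Neither source pairs the label groups with those conditions, so the groups are called here only by their labels. Values are missing for 1 BNST sample of Co inject, 1 vDG sample of Co naive, and 1 PVN sample each of MS naive and MS inject. The labels AMY, BNST, CER, PFC, PVN, dCA1, vCA1, dCA3, vCA3, dDG and vDG stand for the amygdala, the bed nucleus of the stria terminalis, the cerebellum, the prefrontal cortex, the paraventricular nucleus and the dorsal (d) or ventral (v) CA1, CA3 and dentate gyrus. The label Pit is not spelled out, and the design text lists the nucleus accumbens in its place.

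CD47 is a cell-surface glycoprotein with an immunoglobulin-like outer domain and several membrane-spanning segments. Its binding to SIRPα on phagocytes restrains engulfment, which has made it known as a "do not eat me" signal, and in the brain neurons present it to microglia, where it is linked to the sparing of synapses. It is also a receptor for thrombospondin 1 and a partner of integrins.

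The mouse gene (ENSMUSG00000055447.19) lies on the plus strand of chr16:49800533-49915010 in GRCm38, the build called mm10 in the labels. The assay's identifier ends in the exon numbers 7 and 8. Their meaning is not stated in the sources used here. Over the panel the numbers run with the strand in 68 of the 68 assays that could be matched to an annotated transcript, and 6 assays carry a 0, so they were read as exons counted from 0 along the genome. That reading holds in 66 of the 68, while the numbers of Atp5f1 and Spag9 reach the exon count of the matched transcript, so the position of the Cd47 assay is an inference. On that reading the Cd47 assay spans the junction of exons 8 and 9 of the 10 exons of transcript Cd47-201, both coding. The 25 bases on either side of that junction are shown as the sequence that, on this reading, the reads behind every Cd47 value below would span. They come from chr16:49898108-49898132 and chr16:49906781-49906805, plus strand, with the bases of the second exon in capitals. The exact 50-base stretch that was amplified is not given in the sources used here.
Cd47 junction of exons 8 and 9: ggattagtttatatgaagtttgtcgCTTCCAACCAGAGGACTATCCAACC

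GENCODE M21 lists 10 Cd47 transcripts, and 9 of them, all 9 coding ones, hold this junction. Coding transcripts differ downstream of it in the exons for the cytoplasmic tail: 4 use neither of 2 optional tail exons, 3 use the first of them and 2 use both. On the same reading of the exon numbers the assay takes all of these tails together, so the Cd47 values would say nothing about which tail was made. The optional exons are shown, in lower case throughout, as the sequence that tells the tails apart and that, on this reading, the assay does not reach. They lie at chr16:49908054-49908078 and chr16:49908703-49908735, plus strand. The first is shown in its 25-base form, and in 2 of the 3 transcripts that use it alone it runs on to 29 bases.
First optional tail exon: aaagctgtagaggaaccccttaacg
Second optional tail exon: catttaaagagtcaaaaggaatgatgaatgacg

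**Figure D1:**
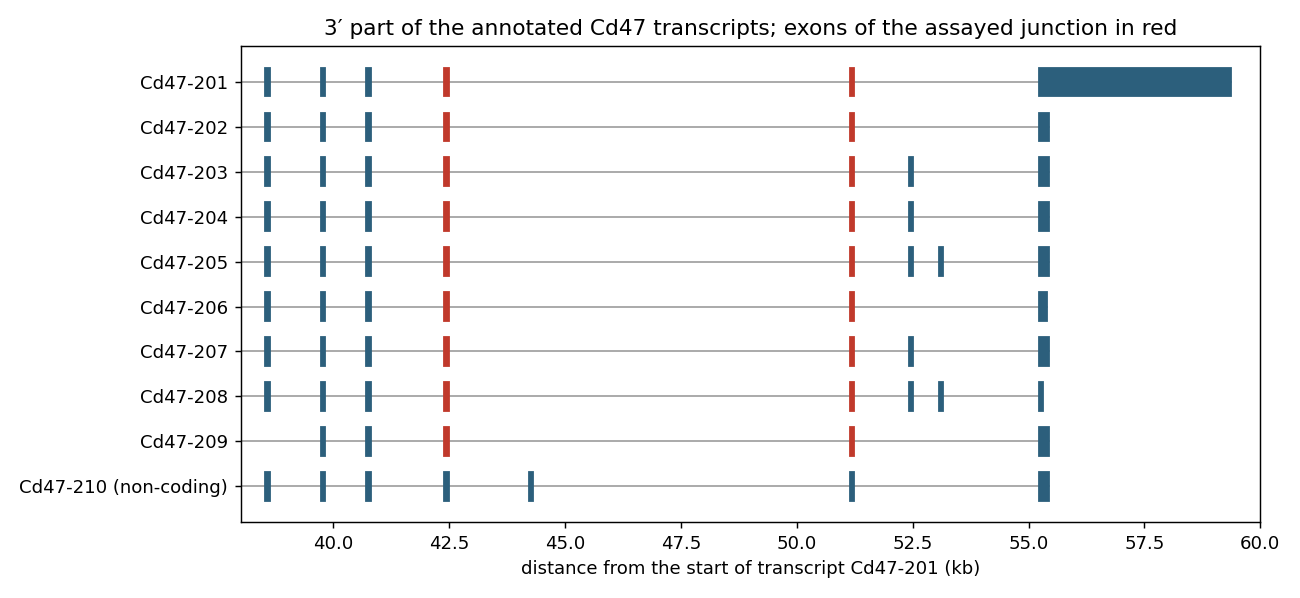
Exons in the 3′ part of the 10 annotated Cd47 transcripts, by distance in kb from the start of transcript Cd47-201. The exons of the junction inferred for the assay are red where the transcript holds the junction. The non-coding transcript, Cd47-210, has an extra exon between them. The optional tail exons lie to the right of the junction in 5 of the 9 coding transcripts.

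Cd47 was among the most strongly read assays of the panel. Its value, which is the number of reads divided by the size factor of the sample, had a median of 5478 over the 380 libraries and ran from 2610 to 13604. By its median it ranked 5 of 69 assays, but assays differ in amplification, so this order is one of signals and not of transcript numbers. The libraries held 12898 to 261007 reads, and Cd47 took 1.72 to 14.0% of them. It was never read fewer than 714 times in a library. Counting error was therefore small beside the spread between mice, although amplified reads do not each stand for a molecule of their own.

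The assays of Anxa2 and Ociad2 split some region labels into separate ranges, which bears on every comparison of regions. Among the 95 Pit, dDG and vDG libraries, Anxa2 lay either at or below 298 or at or above 1901, with 31 libraries over 1000. Among the 96 CER, dCA3 and vCA3 libraries, Ociad2 lay either at or below 843 or at or above 1750, with 64 libraries over 1200. Ociad2 also left a narrower gap in 3 further labels, in vCA1 between 1500 and 2278, in dCA1 between 1095 and 1734 and in PVN between 1492 and 2054, and a limit of 1600, chosen after seeing the values, divides all 3. In BNST, AMY and PFC it ran from 354 to 1960 with no comparable gap. None of 41 markers of brain cell types or regions that were looked for is on the panel, so the region labels could not be checked against defining genes. Libraries of 9 labels thus fall into more than 1 range, whether every library comes from the region of its label was not tested, and each level below is that of a label as deposited, which may hold more than 1 tissue. One library stands apart within the Anxa2 over range, vDG of mouse 83 (MS inject), which held the highest Anxa2 of these labels (21258) and an Ociad2 of 161. Libraries of both ranges occur under each of the 9 labels, and Cd47 is given below for the labels as deposited and by range. Library preparation placed 3 regions on each plate and the plates are not named, so region label and plate cannot be told apart. The samples are bulk tissue, in which fewer cells of a type and less RNA per cell cannot be told apart.

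By median, Cd47 was lowest in BNST, AMY and PFC and highest in vCA3, vDG and dDG. By log2 mean Pit (12.72) lay above vDG (12.70). The whole span of Cd47 from the lowest to the highest label was less than a doubling. In BNST its median was 3840 (2737 to 8551, n = 31). In AMY it was 3942 (2842 to 5509, n = 32), the narrowest spread of the 12 labels, with a coefficient of variation of 17.2%. In PFC it was 4246 (2828 to 8613, n = 32). These 3 labels overlapped over most of their range, with several libraries of BNST and PFC above the highest of AMY.

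The labels in the middle of the order were CA1 and the paraventricular nucleus. The median of Cd47 was 4759 in vCA1 (2966 to 6743, n = 32) and 5223 in dCA1 (2610 to 7747, n = 32). In PVN it was 5238 (2901 to 10077, n = 30). All 3 reached down into the range of AMY and BNST, and the lowest Cd47 value of the series was a dCA1 library with Ociad2 under 1600.

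The upper part of the order held the labels divided at 1000 by Anxa2 or at 1200 by Ociad2, called the upper 6 labels here, and the other 6 the lower labels. The median was 5629 in CER (3879 to 13604, n = 32) and 5774 in dCA3 (3816 to 12478, n = 32), and these labels had the largest coefficients of variation, 34.1% and 33.9%. It was 6638 in Pit (4385 to 11202, n = 32) and 6864 in dDG (3978 to 12470, n = 32). In vDG it was 7031 (4125 to 12508, n = 31), and in vCA3 it was 7538 (4085 to 12236, n = 32). No label stood clear of the others, since even the lowest vCA3 libraries lay within the range of BNST.

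**Figure D2:**
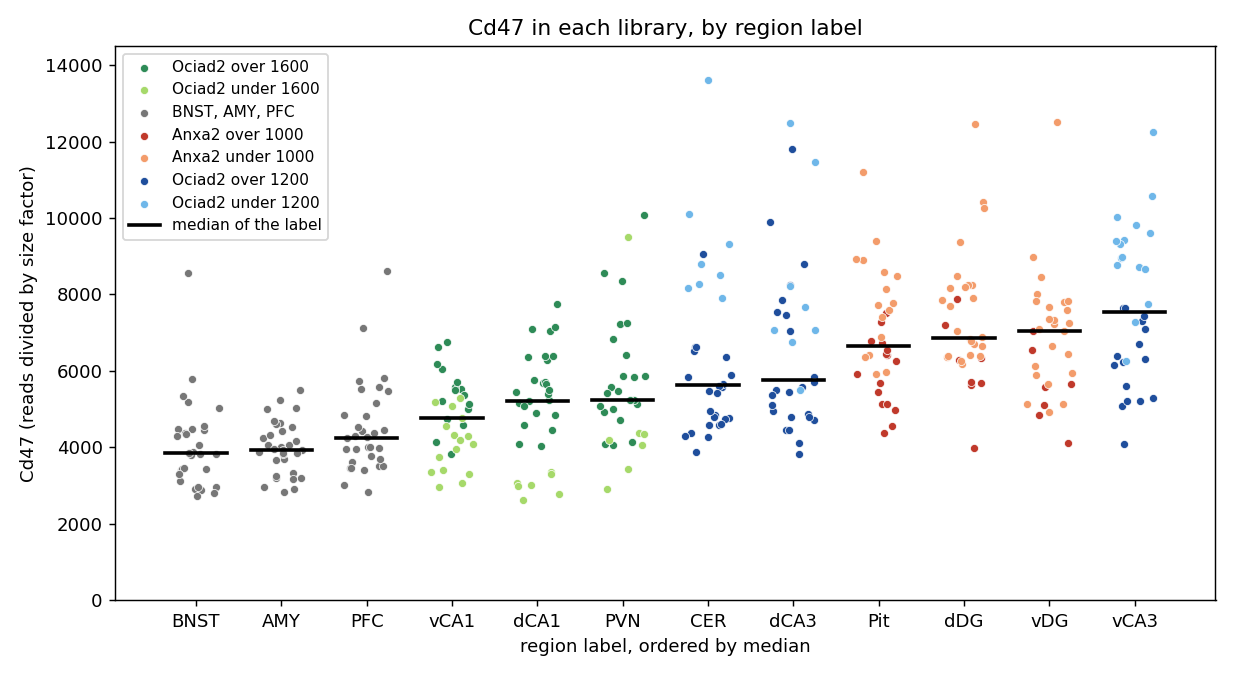
Cd47 in each of 380 libraries (reads divided by size factor, linear axis from 0) for the 12 region labels, ordered by median. Black bars are medians, from 3840 in BNST to 7538 in vCA3. Colours mark the ranges of Anxa2 (Pit, dDG, vDG) and Ociad2 (CER, dCA3, vCA3 at 1200; vCA1, dCA1, PVN at 1600). The libraries of the over range have the lower median in the first 6 of these labels and the higher median in the last 3.

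The region labels were compared in 1 limma fit over all genes on log2(value + 1), with the label group as a covariate. In this fit the libraries of a mouse were taken as independent. Cd47 differed from the mean of the other 11 labels in 11 of 12 labels at an adjusted p under 0.1, 6 higher and 5 lower. This has to be read against a panel in which 58.2% of all such gene-by-label tests passed. Each of the 6 higher calls also depended on the range kept in the upper 6 labels. With the planned ranges dCA3, Pit and vCA3 did not pass (limma adjusted p = 0.266, 0.402 and 0.142). With their mirror CER, dDG and vDG did not (limma adjusted p = 0.479, 0.399 and 0.967). The largest positive difference was in vCA3, where Cd47 was 1.39 times the mean of the other labels (log2 difference 0.47 ± 0.07 SE, limma adjusted p = 3.02e-10). This size depended on the ranges kept, as detailed with them: it was 0.15 with Ociad2 over (limma adjusted p = 0.125) and 0.75 with Ociad2 under (limma adjusted p = 1.34e-15). The largest negative ones were in BNST, at 0.69 times the others (log2 −0.53 ± 0.07, limma adjusted p = 4.35e-12), and in AMY, at 0.70 times (log2 −0.52 ± 0.07, limma adjusted p = 5.12e-12). PVN was the label that did not pass, with a difference of −0.03 and a 95% interval from −0.16 to 0.11.

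Some of this shift was shared by the panel. In Pit the median gene lay 0.44 above the other labels on the log2 scale and Cd47 0.32 above them, and in vDG Cd47 was itself the median gene, at 0.30. In vCA3 the median gene lay 0.01 above the others, against 0.47 for Cd47. In BNST it lay 0.15 below, against 0.53 for Cd47. When the libraries were instead rescaled to the same total, the difference of the median gene moved by −0.19 to 0.17. Cd47 kept the direction of its difference in all 12 labels, and PVN then passed as lower (log2 −0.21, limma adjusted p = 0.0353).

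Of the 66 pairs of region labels, 46 differed in Cd47, where 51.1% of all gene-by-pair tests passed. The widest gap was between vCA3 and BNST, at 1.90-fold (log2 0.92 ± 0.09 SE, limma adjusted p = 9.11e-19). None of the 11 pairs of neighbours in the order by median differed beyond their spread, with adjusted p from 0.133 to 0.951. The 95% intervals of these neighbour differences reached at most 0.35 on the log2 scale. The order of adjacent labels is therefore not fixed by these data, while the 46 called pairs were separated by log2 differences of 0.22 to 0.92.

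The calls fell mostly between the upper and the lower labels as deposited, an order in which 9 of the labels mix ranges. The upper labels also had the higher median library reads, as given below with depth. Of the 36 pairs that join one of each kind, 35 differed, the exception being CER with PVN, where 64.7% of the tests over all genes passed. Among the upper 6 labels, 3 of 15 pairs differed: vCA3 with CER, vCA3 with dCA3, and dDG with CER. Over all genes 45.2% of such tests passed. Among the lower 6, 8 of 15 pairs differed, 6 of them placing vCA1, dCA1 or PVN above BNST or AMY, where 24.4% passed over all genes. PVN also lay above PFC and above vCA1. When these last 6 labels were fitted alone, with the multiple testing of that smaller fit, 7 of the 15 pairs passed and only BNST, AMY and PVN differed from the mean of the other 5. PVN was then 0.32 above that mean (limma adjusted p = 0.000555), since the labels with the highest Cd47 no longer entered it.

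Under the hippocampal labels as deposited Cd47 was lower in CA1 than in CA3 or the dentate gyrus on both sides, dorsal and ventral. The size of these differences depended on the Ociad2 and Anxa2 ranges kept. Dorsally, dCA3 lay 0.39 above dCA1 and dDG 0.56 above it on the log2 scale (limma adjusted p = 0.000149 and 3.56e-08). Ventrally, vCA3 lay 0.68 above vCA1 and vDG 0.52 above it (limma adjusted p = 2.30e-11 and 4.15e-07). Like ranges were then set side by side, an alternative chosen after seeing the data. With Ociad2 over 1600 in CA1 and over 1200 in CA3, dCA1 had a median of 5504 (n = 25) and dCA3 of 5480 (n = 24), and dCA1 minus dCA3 was −0.09 ± 0.09 SE (limma adjusted p = 0.482). In the same fit vCA1 (median 5438, n = 16) minus vCA3 (6273, n = 16) was −0.20 ± 0.11 and did not pass either (limma adjusted p = 0.133). With Ociad2 under those limits the gap was wide and the libraries did not overlap. There dCA1 (3020, 2610 to 3351, n = 7) minus dCA3 (7369, 5504 to 12478, n = 8) was −1.41 ± 0.16 (limma adjusted p = 7.83e-15). On the ventral side vCA1 (4138, 2966 to 5297, n = 16) minus vCA3 (9158, 6251 to 12236, n = 16) was −1.16 ± 0.11 (limma adjusted p = 8.35e-20). The subsets of both fits are cut by Ociad2 of the same libraries. Their p-values describe the libraries kept and are not read as differences of regions. Against the dentate labels with Anxa2 under 1000, CA1 was lower with either Ociad2 range. The difference of dCA1 from dDG was −0.45 over and −1.35 under (limma adjusted p = 4.73e-06 and 2.10e-18), and that of vCA1 from vDG −0.40 and −0.80 (limma adjusted p = 0.000409 and 1.40e-12). With Anxa2 over 1000 and all CA1 libraries kept, also added, dCA1 minus dDG (n = 8) was −0.30 ± 0.13 (limma adjusted p = 0.0647). In that fit vCA1 minus vDG (n = 7) was −0.24 ± 0.14 and did not pass (limma adjusted p = 0.167). Over all libraries CA1 was the lowest of the 3 fields in 20 of 32 mice dorsally and in 25 of 31 mice ventrally. Dorsal and ventral labels of the same field differed in CA3, by 0.22 (limma adjusted p = 0.0388). They did not pass in CA1 (dCA1 above vCA1 by 0.07, 95% interval −0.11 to 0.25) or in the dentate gyrus (vDG below dDG by 0.11, interval −0.30 to 0.07). Of the vCA3 libraries 16 of 32 had Ociad2 under 1200, and of the dCA3 libraries 8 of 32. Dorsal minus ventral CA3 was −0.05 with Ociad2 over 1200 and −0.17 under it, and neither passed (limma adjusted p = 0.737 and 0.344).

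The same mice can be followed through the labels by the mouse numbers of the sample titles. The highest of a mouse's Cd47 values was 1.73 to 5.21 times its lowest, with a median of 2.97. The highest value fell in vCA3 in 10 of 32 mice and in dCA3 in 6, and never in BNST, AMY, PFC, vCA1 or dCA1. The lowest value fell in BNST in 12 mice, in dCA1 in 6 and in AMY in 5, and never in one of the upper 6 labels. Cd47 was higher in dDG than in AMY in 32 of 32 mice, and higher in vCA3 than in BNST in 29 of 31. A mouse was not high or low throughout: over pairs of labels, the correlation of Cd47 deviations across mice had a median of −0.01 (−0.47 to 0.43 over 66 pairs). Averaged over its labels, a mouse departed from the label means by −0.16 to 0.28 on the log2 scale.

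In each of the upper 6 labels, Cd47 was lower in the over range than in the under range. The ranges are defined by other genes of the same libraries, so these differences are described without a test. In CER the median was 5178 with Ociad2 over 1200 (3879 to 9061, n = 24) and 8649 with Ociad2 under 1200 (7908 to 13604, n = 8). In vCA3 it was 6273 (4085 to 7647, n = 16) against 9158 (6251 to 12236, n = 16). In dCA3 it was 5480 (3816 to 11799, n = 24) against 7369 (5504 to 12478, n = 8). The under range was 1.74, 1.47 and 1.35 times the over range in these 3 labels. The ranges overlapped in Cd47 in all 3, although 14 of 16 vCA3 libraries of the under range lay above every one of the over range.

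The Anxa2 ranges gave smaller differences in Cd47. In Pit the median was 6086 with Anxa2 over 1000 (4385 to 7523, n = 16) and 7754 under it (5917 to 11202, n = 16). In dDG it was 6002 (3978 to 7871, n = 8) against 7371 (6183 to 12470, n = 24), and in vDG 5585 (4125 to 7031, n = 7) against 7230 (4936 to 12508, n = 24). The under range was 1.32, 1.27 and 1.28 times the over range. The ranges overlapped in Cd47 in each label here too.

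In the 3 lower labels that Ociad2 divides at 1600 the direction was the opposite, with Cd47 higher in the over range. In dCA1 the median was 5504 with Ociad2 over 1600 (4043 to 7747, n = 25) and 3020 under it (2610 to 3351, n = 7), and the ranges did not overlap in Cd47. In vCA1 it was 5438 (3829 to 6743, n = 16) against 4138 (2966 to 5297, n = 16), and in PVN 5473 (4070 to 10077, n = 23) against 4195 (2901 to 9507, n = 7), with overlap in both. The over range was 1.85, 1.32 and 1.32 times the under range in dCA1, vCA1 and PVN. Over the 3 labels, the median was 5489 in the over range (n = 64) and 3860 in the under range (n = 30), beside 3994 in the 95 libraries of BNST, AMY and PFC and 5538 in the CER, dCA3 and vCA3 libraries with Ociad2 over 1200.

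Among the upper 6 labels, labels lay closer in mean Cd47 within a range than the ranges did within a label. The log2 means of Pit, dDG and vDG lay within 0.13 of each other in the Anxa2 over range and within 0.14 in the under range, while the ranges lay 0.35 to 0.40 apart within a label. For CER, dCA3 and vCA3 the labels lay within 0.21 of each other in the Ociad2 over range and within 0.20 in the under range, and the ranges 0.44 to 0.80 apart. Taken by range, the medians of Cd47 were 5538 (Ociad2 over, n = 64), 5718 (Anxa2 over, n = 31), 7383 (Anxa2 under, n = 64) and 8779 (Ociad2 under, n = 32), against 4381 in the 189 libraries of the lower 6 labels. The choice of range therefore set which label came highest. With Anxa2 under in Pit, dDG and vDG and Ociad2 over in CER, dCA3, vCA3, vCA1, dCA1 and PVN, Pit, dDG and vDG passed as higher than the other labels (0.52, 0.49 and 0.36, limma adjusted p = 5.90e-09, 2.74e-11 and 9.73e-07). The 6 labels divided by Ociad2 did not pass, lying between −0.08 in CER and 0.15 in vCA3. As a pair, CER lay below vCA3 in that fit and passed (−0.21 ± 0.10 SE, limma adjusted p = 0.0841). With Ociad2 under in place of over, all 12 labels passed, CER (0.78, n = 8) and vCA3 (0.75, n = 16) being highest and dCA1 lowest (−0.99, n = 7), and the difference of CER from vCA3 did not pass (0.03 ± 0.13, limma adjusted p = 0.904). BNST, AMY and PFC were lower in both fits, at −0.56, −0.55 and −0.39 in the first and −0.57, −0.56 and −0.40 in the second. The planned choice mixed the ranges, with Ociad2 under in CER, over in dCA3 and vCA3, Anxa2 over in Pit and under in dDG and vDG. It put CER on top at 0.79, while its mirror put vCA3 on top at 0.77 with CER at −0.07, so neither order is read as one of regions. Pit, dDG and vDG did not pass as higher in the fits that kept their Anxa2 over range. Pit was at 0.09 in the planned fit (n = 16, limma adjusted p = 0.402). In the mirror fit dDG was at 0.13 (n = 8, limma adjusted p = 0.399) and vDG at −0.0081 (n = 7, limma adjusted p = 0.967).

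Within a region label and label group its log2 values had an SD of 0.38, the 12th lowest of 69 assays, against 0.66 for the median assay. Most assays are read less than Cd47, and among the 10 assays of highest median its SD ranked 6 from the lowest (0.21 to 0.65). Region label accounted for 44.3% of its variance on the log2 scale, the 6th highest share, against 22.5% for the median assay, and label and range together for 55.8% with the ranges of the upper 6 labels and for 63.0% with those of all 9. Label group within a region accounted for 2.39%, against 5.52% for the median assay. The region means of Cd47 spanned 0.92 on the log2 scale, the 50th widest of the 69 assays.

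Depth followed the split between the lower and the upper labels. Median library reads ran from 94437 in PFC to 123975 in PVN among the lower 6 labels. Among the upper 6 they ran from 146657 in vDG to 183554 in dCA3. The part of depth in that split was not tested. Depth also moved with Cd47 within part of the labels. Within label group and range, deviations of log2 Cd47 and of log2 library reads correlated at −0.75 in PFC (n = 32), −0.64 in CER (n = 32), −0.56 in dCA1 (n = 32), −0.53 in dCA3 (n = 32) and −0.50 in PVN (n = 30), and at 0.46 in Pit (n = 32). These are descriptions, since both quantities come from the same libraries, and the part of depth in the Cd47 levels was not tested. In PFC the 5 libraries under 60000 reads had a median Cd47 of 5821 against 4014 in the other 27, and in BNST 4 such libraries had 4834 against 3838. In AMY 4 had 3837 against 3976, in vCA1 3 had 4772 against 4746, in dCA1 2 had 7069 against 5186, and in PVN 1 had 4195 against 5249. Without all 19 libraries under that depth, which all carry lower labels, 48 of 66 pairs of labels differed and 11 of 12 labels still passed against the others.

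The label groups were compared next within each region label, the question being whether Cd47 went with the labelled status (MS minus Co), with the labelled injection (inject minus naive) or with their interaction. None of the 36 tests of Cd47 passed at a limma adjusted p under 0.1. None reached an unadjusted p under 0.05 either, the lowest being 0.104. Few tests passed on the panel: 0% for status, 0.121% for injection and 0% for the interaction, each of 828 gene-by-label tests.

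For status the differences of Cd47 ran from −0.15 in Pit to 0.07 in PVN on the log2 scale, 5 positive and 7 negative. In Pit the Co naive and Co inject medians were 7440 and 6969 and the MS naive and MS inject medians 6148 and 6480, and all 4 groups overlapped. The 95% interval of the Pit difference ran from −0.39 to 0.10. In AMY, where Cd47 varied least, the status difference was 0.04 with an interval from −0.16 to 0.23. Over all 12 labels the interval bounds for status lay between −0.44 and 0.40.

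For injection the differences ran from −0.19 in vCA1 to 0.15 in PVN. In vCA1 the naive groups had medians of 5113 (Co, 4085 to 6044, n = 8) and 4939 (MS, 3964 to 6184, n = 8). The inject groups had medians of 3991 (Co, 2966 to 6743, n = 8) and 4536 (MS, 3054 to 6620, n = 8). The inject groups reached both lower and higher than the naive ones, and the 95% interval of the difference was −0.42 to 0.04 (limma adjusted p = 1). With the Ociad2 range as a covariate, added after seeing the data, it was −0.19 with an interval from −0.36 to −0.01 (limma unadjusted p = 0.0357, adjusted p = 0.488). In AMY inject lay 0.13 above naive (interval −0.06 to 0.33, limma adjusted p = 0.691). The interaction was least precise, with the largest value in CER (−0.32, interval −0.96 to 0.32).

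**Figure D3:**
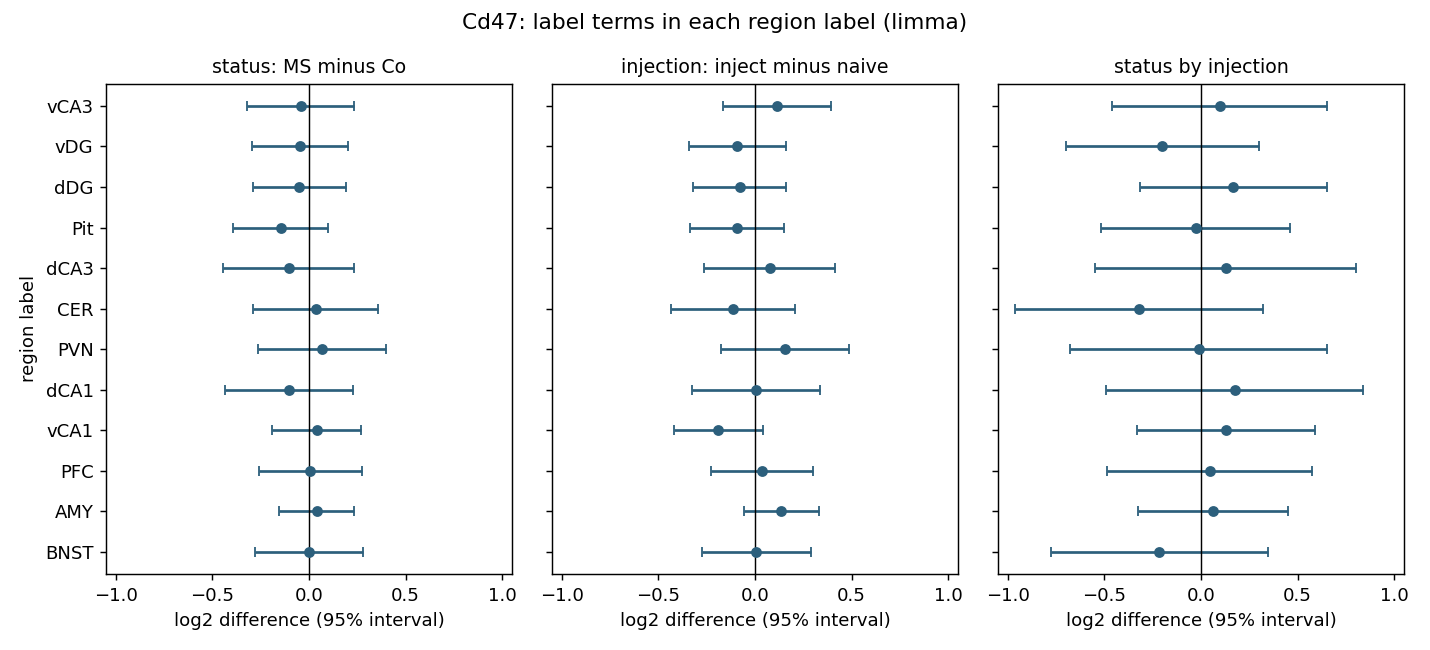
Differences of Cd47 between label groups on the log2 scale (points) with 95% intervals from limma (bars), for status, injection and their interaction in each of 12 region labels. All 36 intervals include 0, and those of the interaction are the widest, by construction.

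The label terms of Cd47 did not differ detectably between region labels. Limma's F tests over 11 terms gave F = 0.25 for region by status, 0.67 for region by injection and 0.37 for the 3-way term, with unadjusted p of 0.993, 0.765 and 0.967. On the panel 0% of 69 genes passed in each of the 3 families. Pooled over the regions, the label groups had Cd47 medians of 5504 (Co inject), 5521 (Co naive), 5237 (MS inject) and 5504 (MS naive), each of 95 libraries. The lowest label was BNST in 3 of the label groups and AMY in the other, while the highest was vCA3 in both inject groups, Pit in Co naive and vDG in MS naive.

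The same contrasts were fitted within each range, with 1 mean of log2 values per mouse. None of the 12 tests of Cd47 passed at a limma adjusted p under 0.1, and 1 reached an unadjusted p under 0.05. On the panel 0% of 276 tests passed for status, 1.09% for injection and 0% for the interaction. The exception at the unadjusted level was status among libraries with Anxa2 over 1000. There Cd47 lay between 5122 and 7871 in 15 Co libraries (median 6416) and between 3978 and 7203 in 16 MS libraries (median 5520), which overlap widely. Per mouse, the MS mean was 0.26 ± 0.09 (SE) below the Co mean on the log2 scale (11 Co and 12 MS mice, limma unadjusted p = 0.00873, adjusted p = 0.301). The MS log2 mean was the lower in Pit (12.42 against 12.62, 8 libraries each), in dDG (12.47 against 12.63, 4 each) and in vDG (12.26 against 12.64, 4 and 3). Without the lowest dDG library (MS inject, mouse 81, 3978), left out after seeing the data, the difference was −0.22 (limma unadjusted p = 0.0173, adjusted p = 0.521). Without the vDG library of mouse 83, which at 4125 was the lowest of vDG in Cd47, it was −0.24 (limma unadjusted p = 0.0214, adjusted p = 0.739). In the Anxa2 under range of the same labels the status difference was 0.03 ± 0.08, in the Ociad2 over range −0.10 ± 0.08 and in the Ociad2 under range 0.10 ± 0.11. Whether these differ from the Anxa2 over range was not tested. In the ranges of vCA1, dCA1 and PVN, likewise added after seeing the data, none of 6 tests passed, 0 had an unadjusted p under 0.05 and the lowest limma unadjusted p was 0.142 (lowest adjusted p = 0.667).

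**Figure D4:**
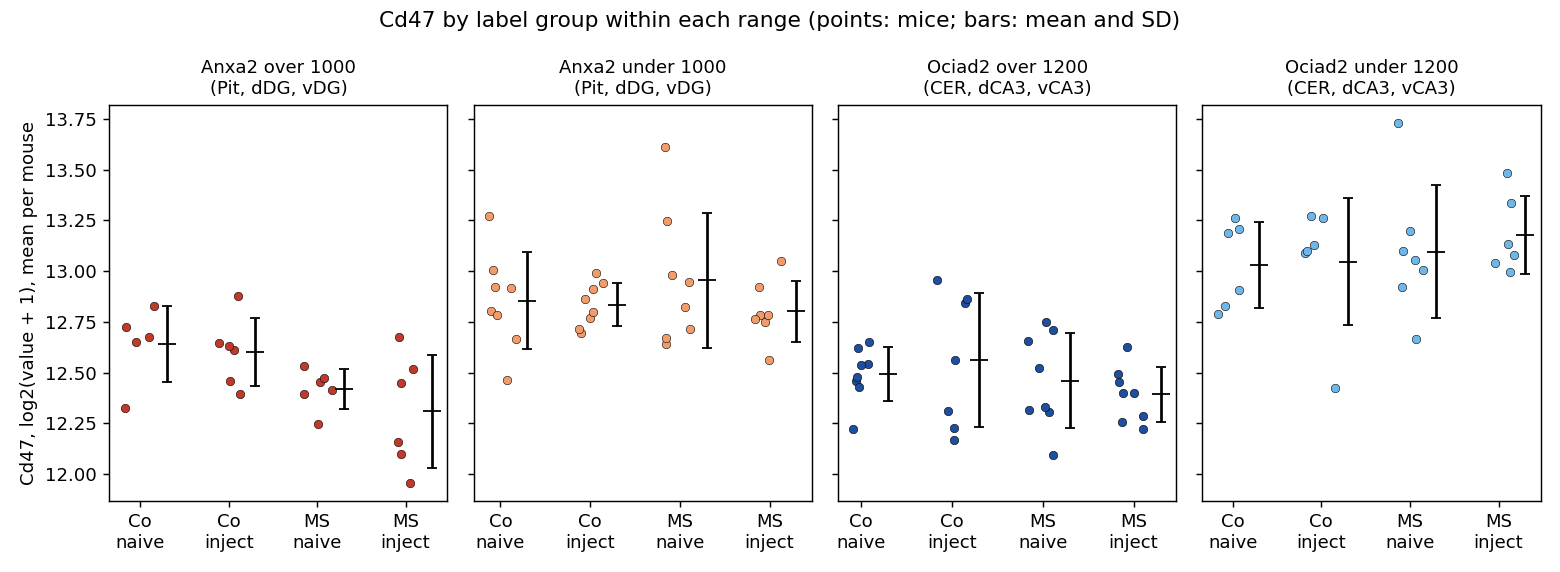
Cd47 by label group within each range, as log2(value + 1) averaged per mouse (points), with the mean and SD of the mice beside them. In the Anxa2 over range the MS groups average 12.42 (naive) and 12.31 (inject) and the Co groups 12.64 and 12.60, with overlapping points. The axis does not start at 0.

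Of 20 ligands, receptors and signalling partners of CD47 that were looked for, Thbs1, which encodes its ligand thrombospondin 1, is the one on the panel. SIRPα and the integrins are not measured, so the partner side of the pathway is seen here through Thbs1 alone. Thbs1 was read little, with a median value of 18.1 over all libraries and no read in 75 of 380. It was highest in Pit, with a median of 69.5 (0 to 373, n = 32), and low in dCA1 and PVN, with medians of 4.46 (0 to 127, n = 32) and 6.06 (0 to 77.9, n = 30). Against the other labels Thbs1 passed as higher in 5 and lower in 5 of 12, where 58.2% of all gene-by-label tests passed. Its region means followed those of Cd47 over all 12 labels (r = 0.75) but ran against them over the lower 6 labels (r = −0.85, n = 6), of which vCA1, dCA1 and PVN mix Ociad2 ranges. Of its libraries with no read, 68 lay in the lower 6 labels and 7 in the upper 6, which lowers its log2 means there. Between libraries of the same group r was −0.13 over 380 libraries, beside −0.14 for the median gene, and nothing is read from it, since 87 libraries held at most 3 reads of Thbs1. No label term of Thbs1 passed in its 36 limma tests, and 0 had an unadjusted p under 0.05.

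Cd47 was also set beside 9 immune and inflammatory assays, namely Lrrc25, Slc7a7, TNF, Lcn2, Zap70, Tmem176a, Peli1, Rfx5 and Fkbp5. Over 108 tests of a label against the others these genes passed 24 times as higher and 26 times as lower, which is 46.3% against 58.2% over all genes. By label group none of their 324 limma tests passed. An unadjusted p under 0.05 was reached in 14 (4.32%), against 72 of 2484 (2.90%) over all genes. None of the microglial markers that were looked for is on the panel, so the share of these cells, which read the CD47 signal, was not estimated.

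Across the 12 region means, the genes most like Cd47 were Mknk2, a kinase of the translation factor eIF4E (r = 0.89), the kinase gene Akt1 (r = 0.88) and Rbm4, an RNA-binding splicing regulator (r = 0.88). The genes running most against it were Polr2i, a subunit of RNA polymerase II (r = −0.87), the histone gene Hist1h2al (r = −0.87) and Mrpl54, a protein of the mitochondrial ribosome (r = −0.86). The correlations were taken among the 63 genes whose mean value reached 10, and the median gene had r = 0.29. After rescaling to equal totals the median gene had r = 0.55, and Fth1 (r = −0.83) and Cct7 (r = −0.81) then ran more against Cd47 than Polr2i did (r = −0.72). Mknk2 and Rbm4 had libraries with no read, 17 and 9 in all, only among the lower 6 labels, which lowers their log2 means there. All 6 were smaller in size over the lower 6 labels, where r was 0.14 for Mknk2, 0.73 for Akt1, 0.43 for Rbm4, −0.77 for Polr2i, −0.40 for Hist1h2al and −0.60 for Mrpl54. Points of the correlation share libraries and size factors, so no p is given.

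**Figure D5:**
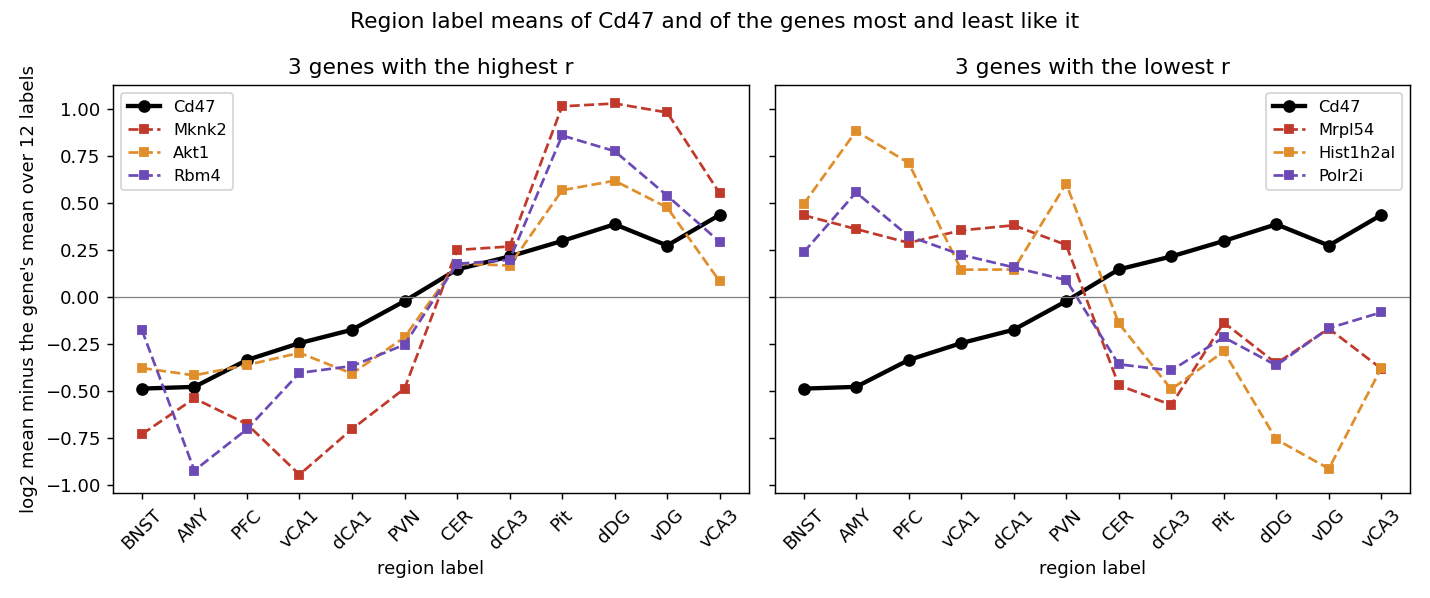
Region label means of log2(value + 1), each gene centred on its mean over 12 labels, for Cd47 (black) with the 3 genes of highest correlation (left) and the 3 of lowest (right). Labels are in the order of the Cd47 medians. All 6 genes cross their own mean between PVN and CER, the border between the lower and the upper labels.

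Between libraries of the same region label and label group, other genes moved with Cd47. These deviations still hold the differences between ranges. The highest correlations of deviations over 380 libraries were with St6galnac4, a sialyltransferase (r = 0.58), Ctnnb1, which encodes β-catenin (r = 0.54), and Peli1, a ubiquitin ligase of innate immune signalling (r = 0.54). The lowest were with Psmb3, a proteasome subunit (r = −0.59), Cct7, a subunit of the cytosolic chaperonin (r = −0.57), and Mrpl54 (r = −0.57). With the ranges of the 9 labels removed as well, r was 0.39 for St6galnac4, 0.62 for Ctnnb1 and 0.48 for Peli1, and −0.60 for Psmb3, −0.50 for Cct7 and −0.50 for Mrpl54. Cul2 (r = 0.54), Akt1 (r = 0.46) and Higd1a (r = 0.41) then stood above St6galnac4. Polr2i (r = −0.55) ran more against Cd47 than Cct7 and Mrpl54, and Ccndbp1 (r = −0.50) lay level with them. After rescaling to equal totals, with the ranges left in, r was 0.72 for St6galnac4, 0.74 for Ctnnb1 and 0.70 for Peli1, and −0.47 for Psmb3, −0.39 for Cct7 and −0.44 for Mrpl54. Fth1 (r = −0.42) and Hsp90aa1 (r = −0.42) then ran more against Cd47 than Cct7. Mrpl54 is the one gene among the most unlike on both measures. The median gene had r = −0.14, and after rescaling to equal totals 0.01.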

How the data were processed

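Targeted RNA libraries (TruSeq Targeted RNA, MiSeq) of 12 region labels from 32 mice were analysed. The authors filtered reads by quality, aligned them with BWA to the assay manifest, counted them per gene and normalized them with DESeq2. The deposited values are thus a signal, namely reads divided by a size factor, and the labels name mm10. In each library they are whole multiples of 1 step within a relative tolerance of 1e-06, which gave the reads. Groups were taken from the sample titles. Values were analysed as log2(value + 1) with limma 3.58.1 in R 4.3.3 and Benjamini-Hochberg adjustment over all genes of a comparison, at 0.1. Tests were checked on simulated data. By their titles, same-numbered samples come from the same animal. Over genes, deviations from the group means correlated between labels of the same animal with a median of 0.0017 (2068 pairs). Between different mice of a label group the median was −0.0020 (14476 pairs). The pairing by mouse thus rests on the titles. Named genes were Cd47, its listed partners on the panel, Anxa2, Ociad2, a list of immune assays and the 3 most and least correlated genes on each of 2 measures. Other genes were named after their values were seen. The gene, the lists and the ranges were chosen with earlier results of these data known, and the Ociad2 limit of 1600 after seeing the values. P-values of the label terms within a region label, and of those per mouse within a range, measure the spread between mice. Those between region labels and of the F tests take the libraries of a mouse as independent and measure the spread between libraries. Intervals cover the stated model only. Alternatives were other pseudocounts, a filter at a mean of 10, rescaled totals, a threshold of 0.05, 5 principal components, the range as a covariate, the mouse as a block, subsets of labels and leaving out each mouse. Transcripts and sequences are from GENCODE M21.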

Additional observations from a re-analysis of the deposited data

Results flagged for a closer look

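In 6 of 48 groups of region label and label group, 1 library stood apart in Cd47, with a gap to the next library that exceeded Dixon's 95% limit. Chance alone flags about 1 in 20 groups. In 5 of the 6 the library was the highest. A BNST library of Co inject (mouse 247) had 8551, with 2885 to 4374 in the others. A PFC library of Co inject (mouse 267) had 8613, with 3463 to 5821 in the others, and a PFC library of Co naive (mouse 241) had 7113, with 2828 to 4841 in the others. These 3 libraries held 56233, 24672 and 36865 reads, fewer than 60000 as in 19 of the 380 libraries; the part of depth in their values was not tested. A CER library of MS naive (mouse 103) had 13604, the highest Cd47 value of the series, with 4301 to 8512 in the others, and belongs to the Ociad2 under range. A dDG library of Co inject (mouse 233) had 10427, with 5638 to 7697 in the others. A dDG library of MS inject (mouse 81) was the lowest of its group at 3978, with 6776 to 8480 in the others, and belongs to the Anxa2 over range. Without these 6 libraries, an alternative chosen after seeing the data, 49 of 66 pairs of region labels and 11 of 12 labels against the others passed, and none of the 36 label terms did.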

How the results depend on the processing

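The counts of Cd47 calls stayed within 1.5 times their value under both other pseudocounts, the filter on low genes, rescaled totals (43 of 66 pairs, 12 of 12 labels), a threshold of 0.05, and the range as a covariate. With 5 principal components of the residuals as covariates, 0 of the 36 label terms of Cd47 passed while 38, 33 and 31 of 828 tests passed on the panel. With the mouse as a replicate block, 46 of 66 pairs and 11 of 12 labels passed, all of them among the calls without it. No paired analysis was possible for the label terms within a region because a mouse belongs to a single label group. Leaving out each mouse gave 46 to 48 pairs, 10 to 11 labels and 0 label terms each time, and CER lost its call without mouse 103 (log2 0.12, limma adjusted p = 0.137). With only AMY, BNST, PFC, PVN, dCA1 and vCA1, 7 of 15 pairs and 3 of 6 labels passed, and against the remaining 5 labels Cd47 turned higher in dCA1 (0.14), PVN (0.32) and vCA1 (0.054), because the labels with the highest Cd47 were gone. With the planned range in each of 6 labels and Ociad2 over 1600 in 3 more, added after seeing the data, 6 of 12 labels passed and PVN was 0.014. With the mirror ranges, also added, CER was −0.066 and vDG −0.0081. With Ociad2 over in 6 labels and Anxa2 under in 3, 6 of 12 labels passed, CER was −0.083 and PVN 0.051. These follow from which ranges were kept, since Cd47 differs between them. Without libraries under 60000 reads, likewise chosen after seeing the data, the PVN difference was 0.0026 in place of −0.026. Without the vDG library of mouse 83, likewise added, the counts of calls were the same. A count model with edgeR, planned as an alternative, was not run, since the values were treated as a signal. Counting error is small for Cd47, with at least 714 reads in every library, while the part of depth in its level was not tested. For Thbs1, with no read in 75 of 380, small differences are not detectable.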
